A study of Mus musculus with 6 samples.

Results

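The genes described here are the assembly factors of the mitochondrial respiratory chain, 43 nuclear genes chosen by symbol from a fixed list. They are 43 of the 55401 genes in the count files, and all were found. By the complex they serve, 13 act on complex I, 4 on complex II, 6 on complex III, 17 on complex IV and 3 on complex V (ATP synthase). RNA-seq was performed on subcutaneous white adipose tissue (scWAT) of male mice aged 8 weeks and kept at room temperature, 3 per genotype. In the YT-AKO group, floxed *Yap* and floxed *Taz* (Yap fl/fl, Taz fl/fl, mixed C57BL/6 and 129 background) were combined with Cre driven from *Adipoq*, a gene of mature adipocytes, so that other cells of the depot keep both genes. The control group is labelled WT and called YT-FF in the study, after the floxed alleles carried without Cre. RNA came from whole tissue, so fewer cells of a type and less RNA per cell cannot be told apart. Nothing in the labels ties a YT-FF library to a YT-AKO library.

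Respiratory complexes are built stepwise in the inner membrane from subunits of nuclear and mitochondrial origin. Assembly factors hold partly built modules, insert heme, copper, flavin and iron-sulfur cofactors, or modify subunits, and most are not part of the finished complex. Brown and beige adipocytes are rich in mitochondria, and their heat production depends on electron flow through these complexes. Inherited defects of many of these factors cause isolated deficiencies of a single complex.

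The libraries held 17740987 to 21838493 counts. *Yap1* gave 1622, 1300 and 1295 counts in the YT-FF libraries and 649, 492 and 529 in the YT-AKO libraries, a log2 fold change of -0.98 ± 0.17 (SE). *Wwtr1*, which encodes TAZ, gave 1818, 1729 and 1918 counts against 3015, 2253 and 2716, a log2 fold change of 0.89 ± 0.18, so its total count went against the label. The groups are therefore the libraries labelled YT-FF and YT-AKO throughout. By immunoblot the study found less YAP and TAZ protein in YT-AKO scWAT. The counts here are of RNA over all exons of a gene. Adipocyte markers were high in every library, and their summed level, in normalized counts scaled to library size (CPM), ran from 14600 to 21700 among the YT-FF libraries and from 21800 to 34400 among the YT-AKO libraries. Beige and brown adipocyte markers summed to 163 to 233 CPM in the control libraries and 1660 to 3610 CPM in the YT-AKO libraries, and 6 of the 7 were called higher. *Cox8b* and *Cox7a1* in that list are also subunits of complex IV. Skeletal muscle markers summed to 132 to 488 CPM in the control libraries and 211 to 3330 CPM in the YT-AKO libraries, with the highest value in YT-AKO 1 and 1 of 7 called higher. Among the other lists, macrophage markers summed to 981 to 1170 against 1320 to 1660 CPM, fibroblast and progenitor markers to 1650 to 2160 against 1810 to 2930 CPM, and T cell markers to 246 to 367 against 223 to 692 CPM. B cell markers summed to 1480 to 1800 against 1010 to 1730 CPM, endothelial markers to 517 to 539 against 338 to 457 CPM, and Schwann cell markers to 149 to 190 against 207 to 405 CPM. Markers called higher were 1 of 7 for adipocytes, 0 of 5 for macrophages, 0 of 5 for T cells and 1 of 4 for Schwann cells. Of the 5 fibroblast and progenitor markers, 1 was called higher and 1 lower. Called lower were 2 of 5 B cell markers and 1 of 4 endothelial markers. No marker of these lists was at 0 in all libraries, and the part of cell composition in the results below was not tested. YT-AKO 2 stood apart from the other libraries, as given with the results it touches.

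By median log2 fold change, assembly factor transcripts were higher in YT-AKO scWAT for each of the 5 complexes. Of the 42 factors with enough counts to test, 31 were called higher, 0 were called lower and 11 were not called, where a call is an adjusted p under 0.05 (edgeR quasi-likelihood, Benjamini-Hochberg). Over the 16807 genes tested, 12.6% were called higher and 9.01% lower. No factor with a negative log2 fold change reached an unadjusted p under 0.05, and DESeq2 and limma-voom also called 0 lower. The median log2 fold change of the 42 was 0.97, against -0.02 for all tested genes, and 39 of the 42 lay above 0. In 35 of the 42, every YT-AKO library was above every YT-FF library in CPM, as in 25.7% of all tested genes. In 1, *Cox20*, every YT-AKO library was below, as in 25.8% of all tested genes. The number of calls depended on the YT-FF libraries. Without YT-FF 1 or without YT-FF 2 no factor was called, and over all genes tested 0 were called higher in either fit. In each, 31 factors had an unadjusted p under 0.05. So did 4665 of the 17183 genes tested without YT-FF 1 and 4507 of 17140 without YT-FF 2, in either direction. Without YT-FF 3, 12 were called, beside 4.03% of all tested genes. The 31 called factors stayed above 0 in each of these fits.

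**Figure D1:**
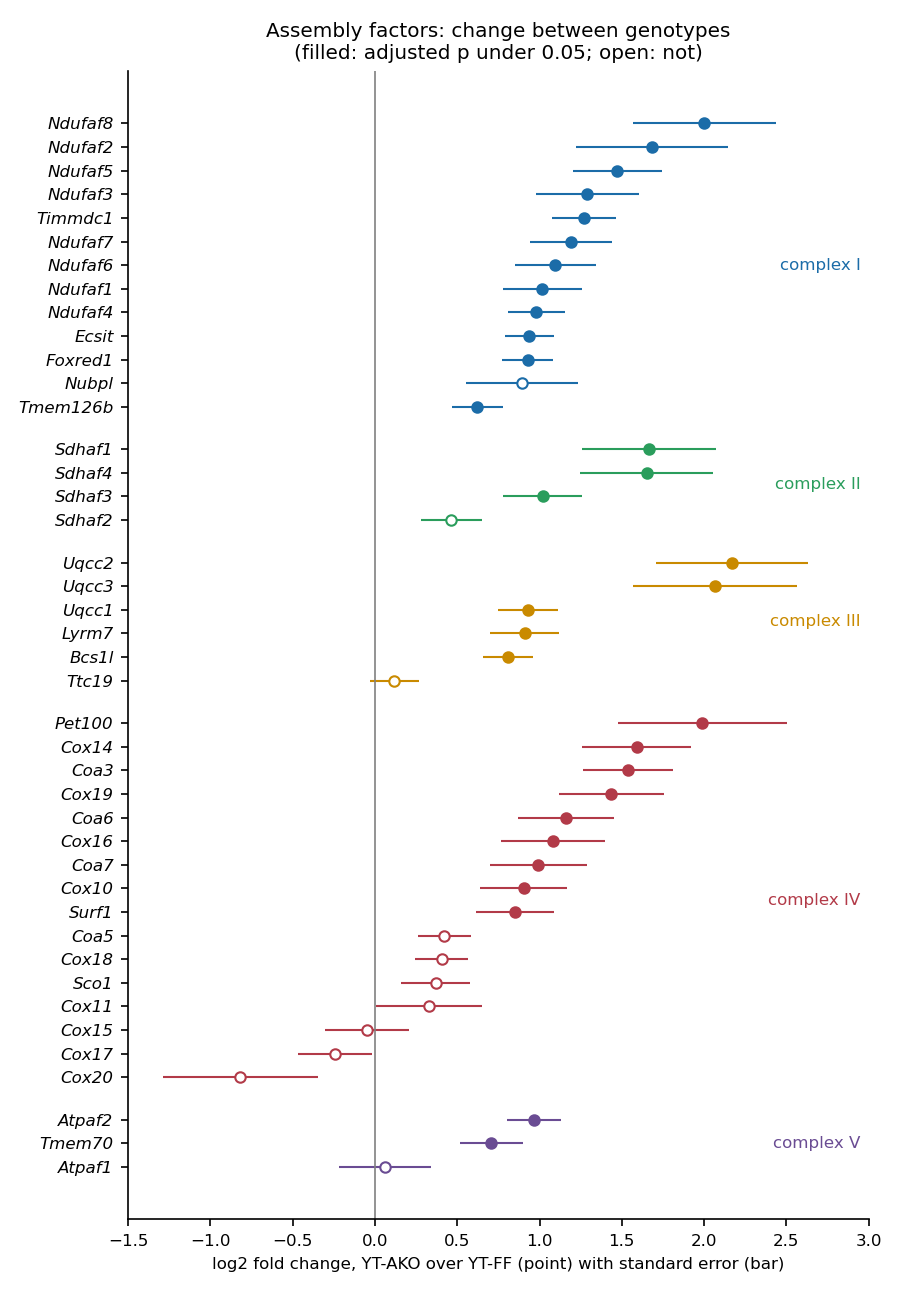
Log2 fold change of the 42 tested assembly factors (x axis, YT-AKO over YT-FF), grouped by the complex served, with bars for the standard error. Filled points are the 31 called higher and open points the 11 not called. The highest value is that of Uqcc2 at 2.17 and the lowest that of Cox20 at -0.82.

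The starts of many of these genes share short motifs. Promoters of 38 of the 43 genes, 40 in all, were in the RefSeq table for GRCm38.p6, each covering 250 bases before to 50 bases after the start. The ETS-type motif CCGGAAG, bound by GABPA among others, was present on either strand in 17 of the 40 (42.5%), against 15.6% of the promoters of all tested genes and 8.86% of all promoters. The NRF1 motif GCGCANGCG was present in 7 (17.5%), against 11.6% and 6.25%, and the YY1 motif AANATGGCG in 6 (15%), against 4.36% and 2.38%. The letters CCAAT were present in 20 (50%), against 37.2% and 37.4%. The ERR motif TCAAGGTCA was in none of the 40 and in 0.280% of the promoters of tested genes, and the TEAD motif CATTCCA was in none of the 40 and in 3.08%. No matches of different motifs overlapped. ETS matches were in 13 of 29 promoters (44.8%) of factors called higher and in 4 of 11 (36.4%) of those not called. For these 2 sets the shares were 17.2% and 18.2% for NRF1, and 17.2% and 9.09% for YY1. CCAAT was in 17 of the 29 (58.6%) and in 3 of the 11 (27.3%). Whether the 2 sets differed was not tested. These matches are a description of letters, not of binding. The windows below show ETS matches at *Ndufaf8*, *Timmdc1*, *Bcs1l* and *Sco1* and NRF1 matches at *Uqcc2*, *Ndufaf4* and *Ttc19*, chosen so that factors called higher stand beside the uncalled *Sco1* and *Ttc19*. They are written 5′ to 3′ on the strand of the gene, with the match in capitals.

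Ndufaf8, chr11:120098904-120098933, plus strand: ccggatgttcacgcgttcgactCCGGAAGa
Timmdc1, chr16:38522678-38522707, minus strand: taggggcggggCTTCCGGtctcctttccga
Bcs1l, chr1:74588231-74588260, plus strand: ggtgggtgtggCCGGAAGtagatgcagcag
Sco1, chr11:67052614-67052643, plus strand: gcctccttcggCTTCCGGcagaagcggaag
Uqcc2, chr17:27133920-27133949, minus strand: gcgccttagtGCGCACGCGccctctgcggt
Ndufaf4, chr4:24897960-24897989, plus strand: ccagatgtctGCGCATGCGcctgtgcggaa
Ttc19, chr11:62281432-62281461, plus strand: atgcgtcatcGCGCATGCGgactggcgggg

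Complex I takes electrons from NADH, and its assembly factors were called higher in 12 of 13 cases, with a median log2 fold change of 1.10. The largest changes belonged to *Ndufaf8* and *Ndufaf2*. *Ndufaf8* (ENSMUSG00000078572, chr11:120098928-120100705 in mm10) encodes a partner that stabilises the hydroxylase *Ndufaf5*, and its promoter is the first shown above. Its level was 9.63, 6.37 and 10.9 CPM in YT-FF (libraries numbered 1, 2 and 3, in that order here and for each gene) and 20.4, 61.3 and 25.9 CPM in YT-AKO. The groups did not overlap, and YT-AKO 2 was the highest library. The log2 fold change was 2.00 ± 0.43 (SE; adjusted p = 0.0244) and 1.37 without YT-AKO 2. *Ndufaf2* (ENSMUSG00000068184, chr13:108002715-108158623), which acts late in assembly, was at 8.31, 7.38 and 10.5 CPM in YT-FF and 13.8, 50.2 and 20.1 CPM in YT-AKO. Again no library of one group reached the other group, and YT-AKO 2 stood far above its 2 companions. Its log2 fold change of 1.68 ± 0.46 (adjusted p = 0.0395) became 0.96 without that library. Of the exon bases of *Ndufaf2*, 65.6% are shared with *B230220B15Rik* on the opposite strand. Fragments there overlapped both genes and were left out of the count, which did not use strand.

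The early intermediate of complex I is held by a membrane assembly group whose 4 members here are *Ndufaf1*, *Ecsit*, *Timmdc1* and *Tmem126b*. All 4 were called higher, with log2 fold changes of 1.02, 0.94, 1.27 and 0.62. *Tmem126b* (ENSMUSG00000030614, chr7:90467438-90476001) had the smallest change of the complex I factors. It was at 29.5, 28.2 and 35.0 CPM in YT-FF and 44.2, 51.4 and 46.9 CPM in YT-AKO. These groups did not overlap and all 3 YT-AKO values lay close together. The change was 0.62 ± 0.16 (adjusted p = 0.0326) in CPM, whereas the log2 ratio of its mean TPM was -0.04, against a median of -0.66 for all tested genes. The factors of the module that binds ubiquinone, *Ndufaf3*, *Ndufaf4* and *Ndufaf6*, were all called, with log2 fold changes of 1.29, 0.98 and 1.10. *Ndufaf5*, which hydroxylates a subunit of that module, changed by 1.47 and *Ndufaf7*, a methyltransferase acting on another, by 1.19. *Foxred1*, a late factor, changed by 0.93. *Nubpl*, which delivers iron-sulfur clusters to complex I, was the one factor of this complex not called, at 0.90 ± 0.34 (adjusted p = 0.0892). Its highest YT-FF value, 15.5 CPM, differed little from its lowest YT-AKO value, 15.5 CPM. DESeq2 called *Nubpl* as well.

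**Figure D2:**
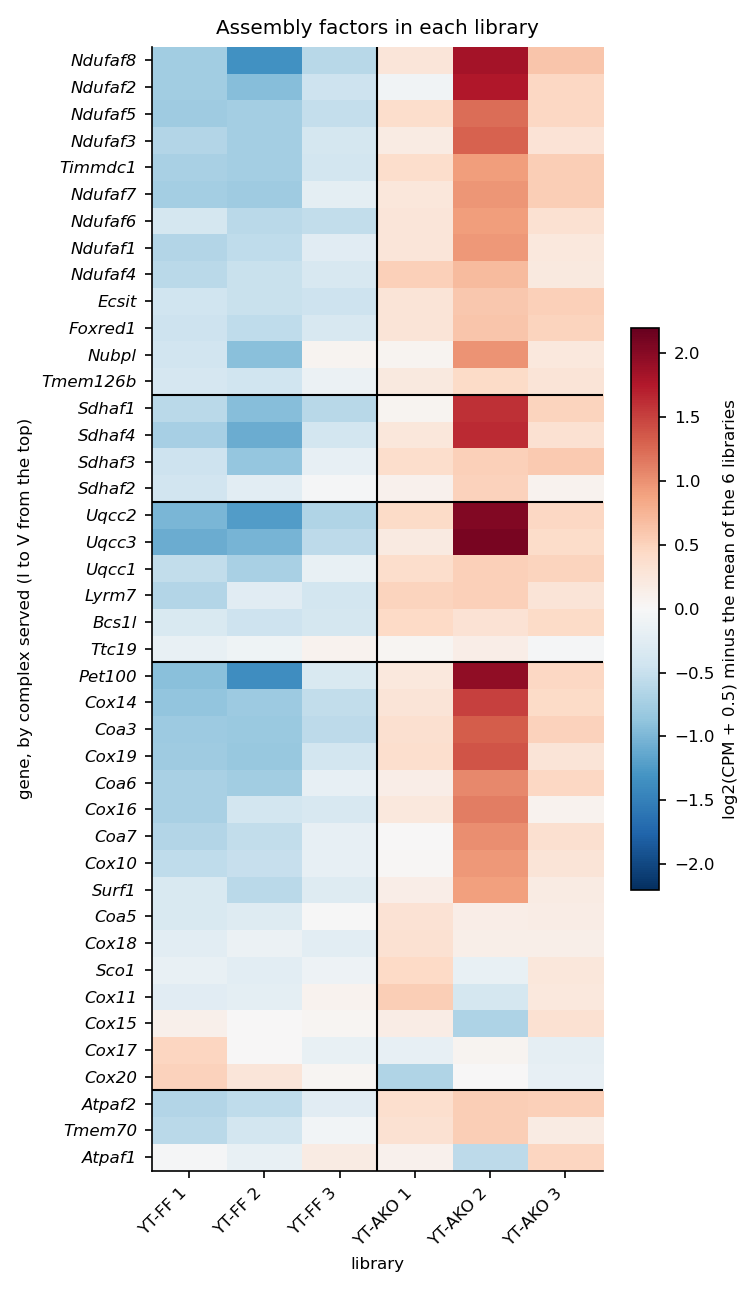
Level of each tested assembly factor (rows, by complex I to V from the top) in each of the 6 libraries (columns), as log2(CPM + 0.5) minus the mean of the 6 libraries. Most rows are blue in the 3 YT-FF libraries and red in the 3 YT-AKO libraries, with the deepest red in YT-AKO 2, where 32 of the 42 factors were highest.

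Complex II, succinate dehydrogenase, has 4 dedicated factors, and 3 were called higher. *Sdhaf1* (ENSMUSG00000074211, chr7:30321406-30323895) and *Sdhaf3* help to place iron-sulfur clusters in Sdhb. *Sdhaf1* was at 6.22, 4.79 and 6.13 CPM in YT-FF and 10.1, 30.4 and 13.8 CPM in YT-AKO. The groups were separate, with YT-AKO 2 the highest. Its log2 fold change was 1.66 ± 0.41 (adjusted p = 0.0309), and 1.06 without YT-AKO 2. Of its exon bases, 69.6% are shared with *E130208F15Rik* on the opposite strand. *Sdhaf3* changed by 1.02. *Sdhaf2* serves the attachment of flavin to Sdha and *Sdhaf4* also acts on Sdha, and the 2 factors differed in size of change. *Sdhaf4* changed by 1.65 and by 1.04 without YT-AKO 2. *Sdhaf2* (ENSMUSG00000024668, chr19:10500534-10526142) was at 42.8, 48.3 and 56.1 CPM in YT-FF and 60.9, 81.9 and 60.3 CPM in YT-AKO. Its groups did not overlap in CPM, but the gap was small. It was not called, at 0.46 ± 0.19 (adjusted p = 0.103). Its log2 ratio of mean TPM was -0.22, above the median of -0.66 for all tested genes.

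Complex III, the bc1 complex, had 5 of 6 factors called higher, with a median log2 fold change of 0.92. *Uqcc1*, *Uqcc2* and *Uqcc3* act on the synthesis and early assembly of cytochrome b, which is encoded in the mitochondrion. *Uqcc2* (ENSMUSG00000024208, chr17:27122663-27133916), whose NRF1 match is shown above, had the largest change of the 43 listed factors. It was at 15.5, 13.1 and 19.7 CPM in YT-FF and 42.4, 131.7 and 43.3 CPM in YT-AKO. The lowest YT-AKO library was well above the highest YT-FF library, and YT-AKO 2 was far above both its companions. Its log2 fold change was 2.17 ± 0.46 (adjusted p = 0.0237), or 4.50-fold, and 1.41 without YT-AKO 2. *Uqcc3* (ENSMUSG00000071654, chr19:8880014-8880923) was at 15.7, 16.5 and 22.8 CPM in YT-FF and 39.1, 145.7 and 45.3 CPM in YT-AKO. Its pattern over the libraries was that of *Uqcc2*, with the groups apart and YT-AKO 2 highest. The change was 2.07 ± 0.50 (adjusted p = 0.0301) and 1.20 without YT-AKO 2. *Uqcc1* changed less, by 0.93.

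The other 3 factors of complex III act on the Rieske iron-sulfur protein. *Bcs1l*, which moves the folded protein across the membrane, changed by 0.81 and *Lyrm7*, its chaperone, by 0.91, and both were called. *Bcs1l*, unlike most factors, was lowest in YT-AKO 2 among the YT-AKO libraries. *Ttc19* (ENSMUSG00000042298, chr11:62281473-62328451), which clears fragments of the Rieske protein, was at 29.4, 30.8 and 34.6 CPM in YT-FF and 33.9, 36.5 and 32.4 CPM in YT-AKO. The groups overlapped. Its log2 fold change was 0.12 ± 0.15 (adjusted p = 0.574). Its promoter held an NRF1 match, as did that of *Uqcc2*.

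Complex IV, cytochrome c oxidase, showed the most varied picture, with 9 of 16 tested factors called higher, 7 not called and log2 fold changes from -0.82 to 1.99. *Pet100* (ENSMUSG00000087687, chr8:3621548-3625848), a small inner membrane factor, was at 5.75, 4.13 and 8.86 CPM in YT-FF and 13.4, 45.2 and 15.7 CPM in YT-AKO. The groups did not overlap and YT-AKO 2 was highest. Its change was 1.99 ± 0.51 (adjusted p = 0.0349) and 1.23 without YT-AKO 2, and 52.6% of its exon bases are shared with *Pcp2* on the opposite strand. *Cox14* (ENSMUSG00000023020, chr15:99725647-99729532) and *Coa3* bind the newly made catalytic subunit COX1. *Cox14* was at 43.4, 45.4 and 54.9 CPM in YT-FF and 96.8, 228.0 and 107.3 CPM in YT-AKO. The lowest YT-AKO library was well above the highest YT-FF library. *Cox14* changed by 1.59 ± 0.33 (adjusted p = 0.0232) and *Coa3* by 1.54.

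The factors that make heme a or carry copper differed among themselves. *Cox10* and *Cox15* catalyse successive steps from heme b to heme a, and *Surf1* is thought to help its insertion. *Cox10* changed by 0.90 and *Surf1* by 0.85, and both were called. *Cox15* was at 42.7, 39.6 and 40.8 CPM in YT-FF and 44.5, 24.5 and 50.05 CPM in YT-AKO. Here YT-AKO 2 was the lowest of the 6 libraries and the other YT-AKO libraries were the highest. Its log2 fold change was -0.05 ± 0.26 (adjusted p = 0.901) and turned to 0.20 without YT-AKO 2, still not called. Of the 7 factors grouped by copper delivery, *Cox19*, *Coa6* and *Cox16* were called higher, at 1.44, 1.16 and 1.08. *Cox16* shares 56.8% of its exon bases with *Gm20498* on the same strand. *Sco1*, *Cox11* and *Cox17*, the metallochaperones that pass copper towards COX1 and COX2, were not called. *Cox17*, which hands copper to the other 2, was at 17.4, 12.6 and 11.1 CPM in YT-FF and 10.9, 13.0 and 10.8 CPM in YT-AKO. Its groups overlapped, at -0.24 ± 0.23 (adjusted p = 0.446). *Sco1* was at 12.6, 11.9 and 13.0 CPM in YT-FF and 19.2, 12.4 and 16.7 CPM in YT-AKO. Only its YT-AKO 2 value fell within the YT-FF range. Its change was 0.37 ± 0.21 (adjusted p = 0.217) over all libraries, and 0.52 (adjusted p = 0.0335) without YT-AKO 2. *Cox11* was the least certain of the 3, at 54 to 111 counts per library and 0.33 ± 0.32, with 48.3% of its exon bases shared with *Tom1l1*. The values of *Cox15*, *Cox17* and *Sco1* in every library are given after their values were seen.

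*Cox18* and *Cox20* insert and chaperone COX2, the copper-binding subunit, and neither was called. *Cox18* changed by 0.41 ± 0.16 (adjusted p = 0.0991), with the groups apart in CPM and a log2 ratio of mean TPM of -0.24, also above that median of all tested genes. *Cox20* (ENSMUSG00000026500, chr1:178319130-178322693) gave 36, 28 and 19 counts in YT-FF and 7, 16 and 13 in YT-AKO, the fewest of all tested factors. These are 1.53, 1.23 and 0.98 CPM against 0.41, 0.94 and 0.77 CPM. Every YT-AKO value was below every YT-FF value, but the closest pair differed by very little. The change was -0.82 ± 0.47 (adjusted p = 0.224). Of the exon bases of *Cox20*, 91.1% are shared with *Hnrnpu* on the opposite strand, so its counts came from the small remainder. *Sco2* (ENSMUSG00000091780, chr15:89371637-89373846), the companion of *Sco1* in copper delivery, was at 0 counts in all 6 libraries and was not tested. Its exons are overlapped over 91.8% of their bases by *Tymp* and *Ncaph2*, so its expression could not be measured by this counting. The remaining factors were *Coa7*, called at 0.99, and *Coa5*. *Coa5* had the most counts summed over the libraries, at 3257 to 3746 in each, and was not called at 0.42 ± 0.16 (adjusted p = 0.0912). *Coa5* was called without YT-AKO 2, at 0.45, and its log2 ratio of mean TPM was -0.22, again above the median of all tested genes.

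**Figure D3:**
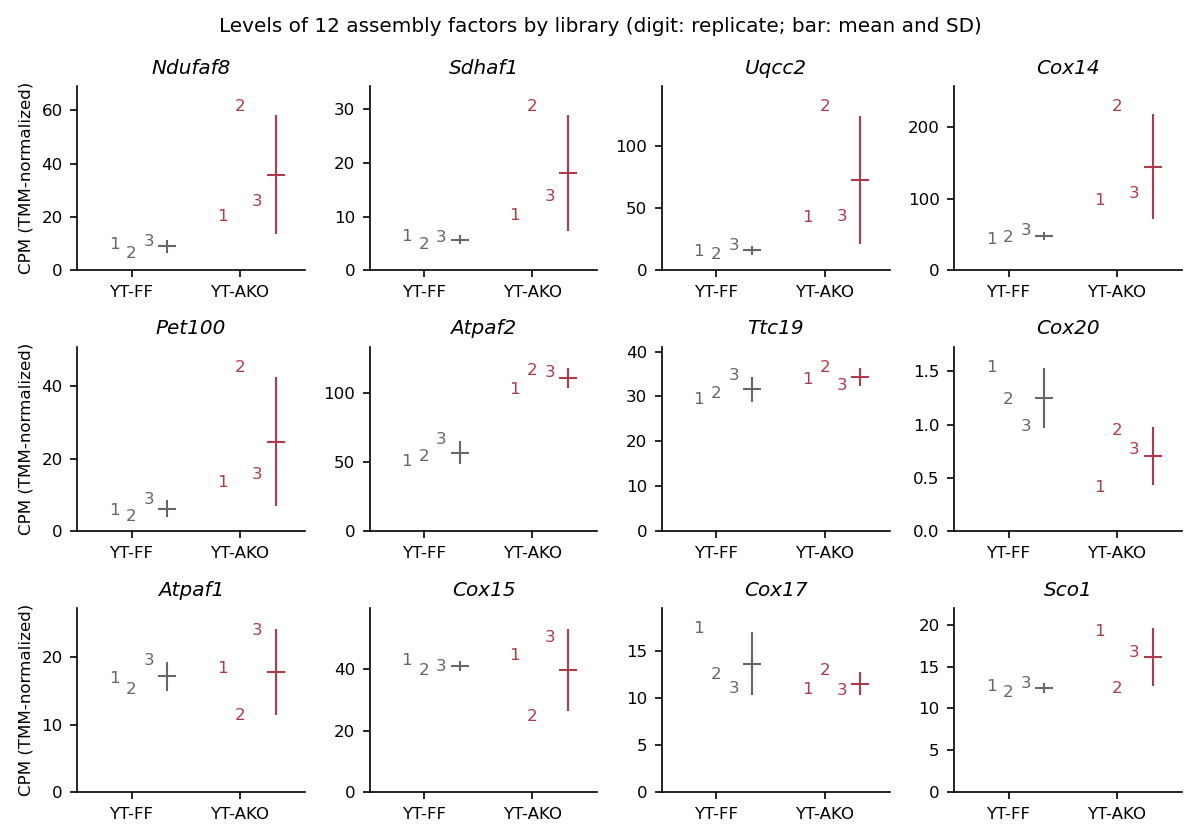
TMM-normalized CPM of 12 assembly factors in each library. Digits mark the replicate, the horizontal bar the mean and the vertical bar the SD of 3 libraries. YT-AKO 2 is the top digit for Ndufaf8, Sdhaf1, Uqcc2, Cox14 and Pet100 and the bottom digit for Cox15 and Atpaf1. For Ttc19 the groups overlap, at 29.4 to 34.6 CPM in YT-FF and 32.4 to 36.5 CPM in YT-AKO.

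The 3 factors of complex V act on different parts of the enzyme. *Atpaf2* (ENSMUSG00000042709, chr11:60400626-60418457), a chaperone of the alpha subunit, was at 50.2, 53.8 and 66.2 CPM in YT-FF and 102.6, 115.8 and 114.5 CPM in YT-AKO. The groups were far apart and the 3 YT-AKO libraries close together. It changed by 0.97 ± 0.16 (adjusted p = 0.0177). *Atpaf1* (ENSMUSG00000028710, chr4:115784812-115822655), the chaperone of the beta subunit, was at 16.8, 15.2 and 19.5 CPM in YT-FF and 18.3, 11.3 and 24.0 CPM in YT-AKO. Its YT-AKO libraries held both the lowest and the highest value of the 6. The change was 0.06 ± 0.28 (adjusted p = 0.888), and it ran from -0.21 to 0.30 as single libraries were left out. *Atpaf1* shares 21.7% of its 50-base words with the transcript of *Gm14117*, so fragments that map to both may have been left out of the count. *Tmem70*, which helps to form the ring of c subunits, changed by 0.71 ± 0.19 (adjusted p = 0.0390).

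Subunits of the finished complexes had larger median changes than the factors that build them in complexes I, III, IV and V, and in complex II the order depended on YT-AKO 2. The list of nuclear-encoded subunits held 82 tested genes, of which 77 were called higher and 0 lower, by DESeq2 78 and 0, with a median log2 fold change of 1.85. In complex I the median was 1.93 for 37 subunits, with 36 called, against 1.10 for 13 factors. In complex III it was 1.78 for 9 subunits, with 8 called, against 0.92 for 6 factors. In complex IV it was 1.89 for 16 subunits, with 13 called, against 0.88 for 16 factors. In complex V it was 1.61 for 16 subunits, all called, against 0.71 for 3 factors. In complex II the median was 1.24 for 4 subunits, all called, and 1.34 for 4 factors, but without YT-AKO 2 it was 1.24 and 1.02. Change also depended on gene length, as given below. With each library corrected for length, the medians were 1.46 for all subunits and 0.88 for all factors, against 1.85 and 0.97 without correction. The order within each complex stayed the same under that correction. These medians are descriptions, and no test was made between the lists. Subunits encoded in mitochondrial DNA had no counts in any library and were not compared.

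**Figure D4:**
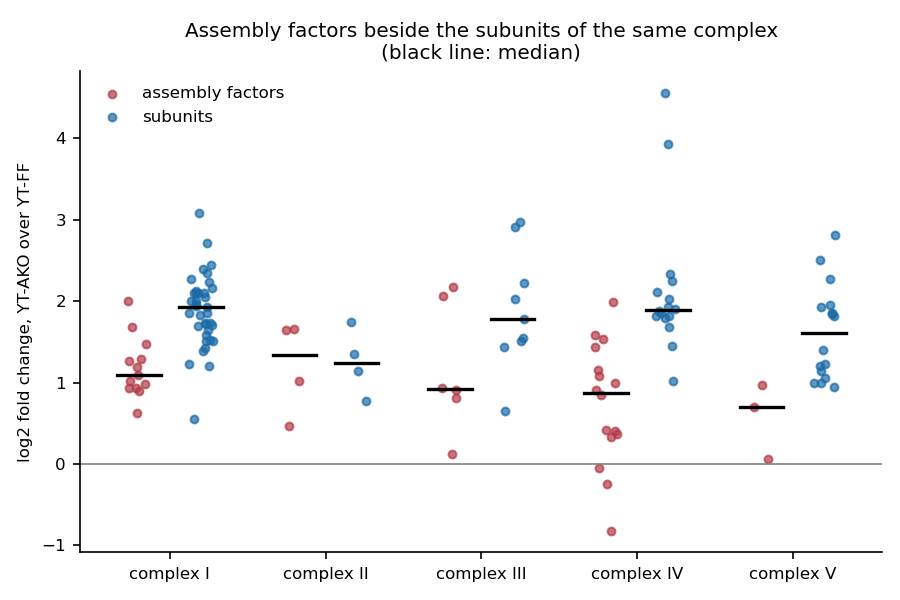
Log2 fold change (y axis, YT-AKO over YT-FF) of tested assembly factors (red) and nuclear-encoded subunits (blue) of complexes I to V, with a black line at each median. The medians of the subunits lie above those of the factors except in complex II, where they are 1.24 and 1.34 with all libraries and 1.24 and 1.02 without YT-AKO 2.

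Further assembly and stability factors outside the 43 were also measured. Of 22 tested, 14 were called higher and 0 lower, with DESeq2 16 and 0, and their median log2 fold change was 0.98. *Fmc1*, a factor of complex V, changed by 2.37 and *Cmc2*, a factor of complex IV, by 2.34. *Higd1a* changed by 1.70 and *Smim20* by 1.43, both acting on complex IV. *Cox7a2l* and *Higd2a*, which bear on supercomplexes, changed by 1.12 and 1.29. *Acad9*, the flavoprotein of the early complex I group, was at 0.05 ± 0.28 (adjusted p = 0.897) and *Tmem186* of the same group at -0.09 ± 0.20 (adjusted p = 0.760). *Taco1* and *Lrpprc*, which act on the translation and stability of mitochondrial mRNAs, were at 0.44 (adjusted p = 0.0884) and 0.69 (adjusted p = 0.0380).

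The factors did not move equally in the 3 YT-AKO libraries. The median deviation from the 6-library mean on the log2 scale was -0.59, -0.56 and -0.27 for the YT-FF libraries and 0.26, 0.91 and 0.34 for the YT-AKO libraries, in the order of their numbers. Of the 42 factors, 32 were highest in YT-AKO 2, 5 in YT-AKO 1, 3 in YT-AKO 3 and 2 in YT-FF 1. The summed markers of beige and brown adipocytes, adipocytes, macrophages, T cells and Schwann cells were also highest in YT-AKO 2, and those of endothelium were lowest there. Without YT-AKO 2, 34 factors were called higher, beside 16.9% of all tested genes. These were the same 31 plus *Sco1*, *Cox18* and *Coa5*, and the median log2 fold change was 0.85. Without YT-AKO 1, which had the highest sum of muscle markers, 30 were called, beside 12.7% of all tested genes.

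YT-AKO 2 also differed in how level depended on gene length. Across all tested genes, the rank correlation (Spearman's rho) of the change with summed exon length was -0.38, and -0.28 without YT-AKO 2. Across the 42 factors it was -0.53, and -0.48 without that library. These are correlations across genes of the same libraries, and genes are not independent replicates. The factors were short, with a median of 2600 bases against 3888 for all tested genes. Of the 21 shorter factors (747 to 2490 bases), 19 were called, with a median log2 fold change of 1.27. Of the 21 longer factors (2710 to 7195 bases), 12 were called, with a median of 0.90. Over all tested genes of any length 12.6% were called higher, and the shares within these length ranges were not computed. In the shorter factors the median log2 ratio of YT-AKO 2 to the mean of YT-AKO 1 and 3 was 0.76, and in the longer ones 0.22. When each library was corrected for gene length, the medians were 0.88 and 0.99. With that correction 22 factors were called higher, beside 10% of all tested genes, and 21 of these were among the 31. The 10 no longer called were *Ndufaf1*, *Ndufaf6*, *Ndufaf2*, *Bcs1l*, *Cox10*, *Surf1*, *Coa6*, *Cox16*, *Coa7* and *Tmem70*. Some of these changed little in size, such as *Cox16* (1.08 and 1.07 after correction) and *Ndufaf2* (1.68 and 1.52). Others fell further, such as *Ndufaf1* (1.02 and 0.57), *Surf1* (0.85 and 0.44) and *Tmem70* (0.71 and 0.33).

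**Figure D5:**
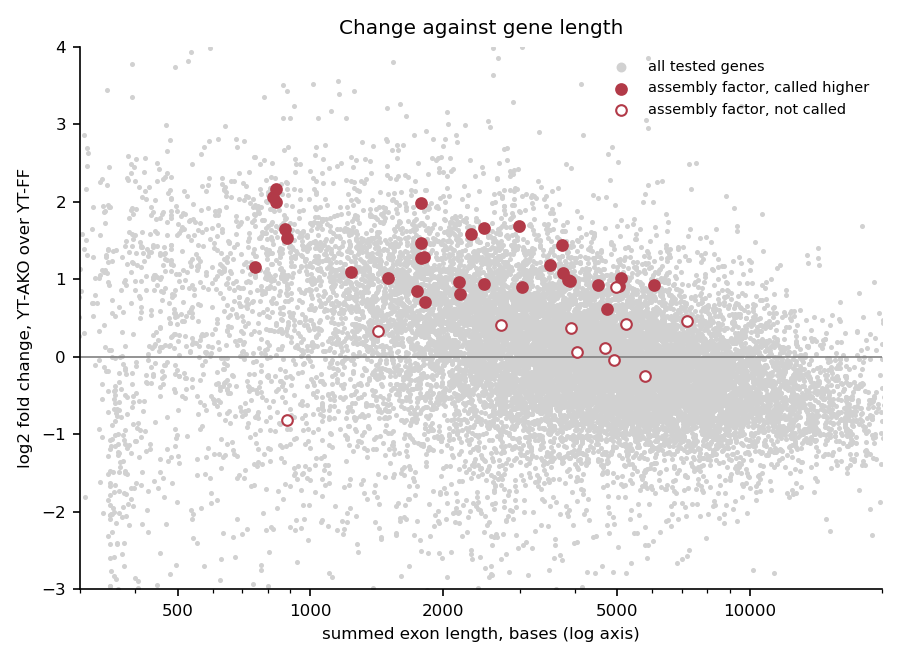
Log2 fold change (y axis) against summed exon length in bases (log x axis) for all tested genes in grey and the assembly factors in red, filled where called higher. The axes leave out 326 of the grey points. Uqcc3, Ndufaf8 and Uqcc2, at 821 to 837 bases, have the largest changes among the factors, and Cox20 at 883 bases lies below 0.

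Levels were compared between genes per length, as TPM, a transcript share scaled to the library. In YT-FF the factors ran from 4.54 ± 0.94 TPM (SD, n = 3) for *Sdhaf3* to 140.2 ± 7.3 TPM for *Coa3*. *Tmem70* (119.4 ± 18.7), *Coa5* (110.1 ± 8.8), *Atpaf2* (98.2 ± 10.6) and *Surf1* (93.5 ± 7.5) followed *Coa3*, and neighbours in that order did not differ beyond their spread. In YT-AKO, *Coa3* had the highest mean, 243.9 ± 27.0 TPM. *Uqcc3* and *Uqcc2* came next at 197.9 ± 98.2 and 185.8 ± 77.9 TPM, from ranks 6 and 8 in YT-FF, with spreads that overlap each other and that of *Coa3*. In YT-AKO 2 both were above *Coa3*. *Ndufaf8* moved from rank 17 to 9, at 40.5 ± 9.1 and 93.8 ± 31.5 TPM. *Cox15* moved from rank 18 to 28, at 31.8 ± 1.7 and 20.6 ± 10.3 TPM. Levels of genes whose exons overlap others are low estimates, because shared fragments were left out.

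Fewer factors were higher in YT-AKO by TPM than by CPM. The median log2 ratio of mean TPM was -0.66 over all tested genes and 0.29 over the factors, and 40 of the 42 factors lay above the median of all genes. In 18 of the 42, every YT-AKO library was above every YT-FF library in TPM, as in 7.52% of all tested genes. In 4, *Ttc19*, *Cox15*, *Cox17* and *Cox20*, every YT-AKO library was below, as in 54.5% of all tested genes. When libraries were scaled by their totals alone, the median of all tested genes shifted to -0.34, and 22 factors were still called higher, beside 6.77% of all tested genes. That scaling also changed the balance of calls over all tested genes, from 58.3% higher to 28.7% higher.

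Many assembly factors start beside a gene on the other strand. Of the 43, 20 (46.5%) have such a start within 1000 bases, against 23.9% of all tested genes. Of their 17 tested partners, 1 was called higher, 1 lower and 15 were not called, with a median log2 fold change of 0.30. Over all tested genes 12.6% were called higher and 9.01% lower. *Pet100* and *Xab2*, 232 bases apart, changed by 1.99 and 0.30. *Ndufaf8* and *Tepsin*, 197 bases apart, changed by 2.00 and 0.33, and *Ndufaf2* and *Ercc8*, 108 bases apart, by 1.68 and 0.05. *Ndufaf7* and *Cebpz*, 70 bases apart, changed by 1.19 and 0.07. *Bcs1l* and *Zfp142*, 43 bases apart, had opposite signs, 0.81 and -1.23, the latter not called (adjusted p = 0.0868). For *Ttc19* the order was turned round, since its partner *Zswim7* was called higher at 1.23 ± 0.28 (adjusted p = 0.0270) and *Ttc19* was not called. *Cpsf7*, the partner of *Sdhaf2*, was called lower at -0.57 ± 0.15 (adjusted p = 0.0346). Whether the factor and its partner differed from each other was not tested.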

How the data were processed

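The authors sequenced paired ends, aligned the reads with HISAT2 (mm10) and assigned fragments to GENCODE exons with featureCounts, without strand. The deposited values are raw counts per gene. By default that tool leaves out fragments that map to several places or overlap several genes. Groups came from the genotype labels. Of 55401 genes, 16807 passed filterByExpr (minimum count 10, minimum total 15). The main test was edgeR 4.0.16 in R 4.3.3 with TMM normalization, the quasi-likelihood test and Benjamini-Hochberg adjustment over those genes (threshold 0.05). DESeq2 1.42.0 and limma 3.58.1 (voom) were alternatives, and the test was checked on simulated data. The length correction fitted a spline of 6 degrees of freedom per library. CPM used the TMM factors, TPM the summed exon lengths, and the biological coefficient of variation was 0.288. With 3 libraries a group, counting error only is covered by depth, and the p-values measure the spread between these mice. Named genes were all 43 factors. Values in every library were given for the largest 2 and the smallest change in each complex (largest and smallest in II and V) and for the untested factor. Those of *Cox15*, *Cox17* and *Sco1* were added outside this rule, after their values were seen. The factors and lists were chosen with earlier results of these data known. *Atp5po*, *Uqcc4*, *Uqcc6* and *Coa1* were not used here. Coordinates are those of the files and of RefSeq GRCm38.p6.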

Additional observations from a re-analysis of the deposited data

How the results depend on the processing

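The count of factors called higher, 31, stayed within 22 to 32 under DESeq2, limma-voom, upper-quartile scaling, library totals alone, no filter, a filter of 10 counts in every library, robust estimation and the length correction. Of the 13, 4, 6, 16 and 3 tested in complexes I to V, the length correction called 9, 3, 4, 5 and 1. Library totals alone called 11, 2, 3, 5 and 1. With the replicate block the count over all factors was 0, as with the block and the length correction together. Under the block alone, 31 factors had an unadjusted p under 0.05, beside 5806 of the 16807 genes tested, in either direction. As single libraries were left out, the count of factors called higher ran from 0 to 34. The count of subunits called higher, 77, was 0 with the block, 1 with the block and the length correction, and 0 to 79 as single libraries were left out. Under the block, 24 genes in all were called higher and 9 lower. Deviations of same-numbered libraries correlated at 0.13, -0.12 and -0.09, and those of differently numbered libraries at -0.14 to 0.16. With 3 libraries a group these values cannot show whether the mice were paired. By construction the block leaves fewer residual degrees of freedom. The median log2 fold change of the factors was 0.64 with library totals alone. It was 0.65 with the length correction and without YT-AKO 2 together, an alternative chosen after seeing the data. Under that alternative 28 factors were called higher, beside 14.5% of all tested genes. The 31 called factors stayed above 0 in every fit. The log2 ratio of mean TPM turned below 0 for *Tmem126b* (-0.042), *Sdhaf2* (-0.22), *Ttc19* (-0.54), *Sco1* (-0.23), *Cox11* (-0.25), *Cox18* (-0.24), *Coa5* (-0.22) and *Atpaf1* (-0.52). With library totals alone, *Ttc19* was at -0.21 and *Atpaf1* at -0.23. *Cox15* turned to 0.040 with the length correction, 0.20 without YT-AKO 2 and 0.26 with both. *Cox11* turned to -0.046 with the length correction and -0.14 with the block added. *Atpaf1* ran from -0.21, without YT-AKO 3, to 0.30, without YT-AKO 2, and was at -0.03 without YT-FF 2. The signs under TPM and library totals came with shifts of the median of all tested genes, to -0.66 and -0.34. The causes of the changes of sign under the other settings were not tested. *Cox20* and *Cox11* had the fewest counts of the tested factors, 7 to 36 and 54 to 111 per library.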
